A study of Mus musculus with 6 samples.

Results

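The Hox cluster genes are described here in C2C12 mouse myoblasts that carry a normal or a DM1 repeat. Members were all genes of the deposited tables whose name is Hoxa, Hoxb, Hoxc, or Hoxd followed only by a number. There were 39 members among 55421 genes, with 11 in the Hoxa, 10 in the Hoxb, 9 in the Hoxc, and 9 in the Hoxd cluster. In GRCm38, the build of the files, the Hoxa members lay at chr6:52155590-52260880 on the minus strand, and the other clusters on the plus strand at chr11:96194316-96368256 (Hoxb), chr15:102921103-103036852 (Hoxc), and chr2:74668310-74765142 (Hoxd). Reads were counted over annotated exons, so each value below is for the exons of a member.

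Hox genes encode homeodomain transcription factors that give cells their position along the body axis. Within a cluster the genes are ordered from paralogue group 1, used toward the head, to paralogue group 13, used toward the tail and the ends of the limbs, and genes of the same group in different clusters are close relatives. Cells taken from the body often keep the Hox pattern of the place they came from. Polycomb complexes keep unused Hox genes silent, Trithorax complexes keep used ones active, and HOX proteins bind DNA together with the TALE cofactors of the PBX, MEIS, and PKNOX families.

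C2C12 is a line of mouse skeletal muscle myoblasts that fuse into myotubes after a change to low serum. The normal group (CUG5, 3 libraries) was stably transfected with GFP-CUG5, which carries 5 CTG repeats, and the DM1 group (CUG200, 3 libraries) with GFP-CUG200, which carries 200 CTG repeats, and both were selected with G418 and sequenced at differentiation day 4. The comparison asks what expanded CUG RNA changes in myoblasts, as a model of myotonic dystrophy type 1 (DM1). The repeat is expressed from a plasmid and not from its own gene, the sources used here do not say whether a line is 1 clone, and the study calls the libraries of a group biological replicates without describing separate transfections or cultures, so p-values measure the spread between these libraries.

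The libraries held between 61707889 and 80957325 counts, and the Hox members took between 16046 and 20867 of these. A deposited count stood for 75 aligned bases, and 4 counts, the commonest low value, are taken as 1 fragment. A count of 0 then allows up to 3 fragments, which is between 0.148 and 0.194 CPM (counts scaled by library size) depending on the library, for counting error only. All 13 myoblast and myotube markers were detected, with Acta1 (skeletal actin) and Tnnt3 (fast troponin T) the most abundant. Of the markers of other cell types, Adipoq, Fabp4 (adipocytes), Neurod1 (neurons), Ptprc (blood cells), and Tcf21 (fibroblasts of the heart and viscera) had 0 counts in all 6 libraries, but other genes of the same lists were detected, from 5.08 to 8.15 TPM for Pparg, from 70.1 to 104.6 TPM for Tubb3, from 3.95 to 6.74 TPM for Cd68, from 252 to 744 TPM for Ly6a, and from 631 to 919 TPM for Dcn.

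Annotated start windows of a used member and of its silent relative are shown first, because members of 1 paralogue group were in use in one cluster and silent in another. Counts per gene do not show which annotated start was in use. The Hoxa3 window lies between Hoxa6 and Hoxa7, at the far 5′ end of the Hoxa3 span, where the readthrough gene Gm28308 also begins. RefSeq windows of 300 bases (GRCm38.p6, 250 bases before to 50 after a start, read 5′ to 3′ along the gene) were found for 22 of the 39 members, with 24 windows in all. Capitals mark CpG dinucleotides. Hoxa10 (chr6:52240805-52241104, minus strand, the upstream of its 2 windows) had the highest deposited level per length, Hoxd10 (chr2:74691641-74691940, plus strand) belongs to the same paralogue group and had 0 counts, and Hoxa3 (chr6:52213018-52213317, minus strand) was higher in the DM1 group.
Hoxa10: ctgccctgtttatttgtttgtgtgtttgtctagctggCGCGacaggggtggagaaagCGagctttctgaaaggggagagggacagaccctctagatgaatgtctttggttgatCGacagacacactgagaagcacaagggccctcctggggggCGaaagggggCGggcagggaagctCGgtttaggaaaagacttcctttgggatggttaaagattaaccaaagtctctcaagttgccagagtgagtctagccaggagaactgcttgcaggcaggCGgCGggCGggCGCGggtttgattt
Hoxd10: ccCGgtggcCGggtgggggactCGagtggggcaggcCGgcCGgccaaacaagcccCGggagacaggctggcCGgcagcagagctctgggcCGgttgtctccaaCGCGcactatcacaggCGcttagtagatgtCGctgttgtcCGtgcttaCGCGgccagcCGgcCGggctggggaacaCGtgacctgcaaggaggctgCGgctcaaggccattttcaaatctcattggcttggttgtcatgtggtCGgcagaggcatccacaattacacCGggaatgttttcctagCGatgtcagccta
Hoxa3: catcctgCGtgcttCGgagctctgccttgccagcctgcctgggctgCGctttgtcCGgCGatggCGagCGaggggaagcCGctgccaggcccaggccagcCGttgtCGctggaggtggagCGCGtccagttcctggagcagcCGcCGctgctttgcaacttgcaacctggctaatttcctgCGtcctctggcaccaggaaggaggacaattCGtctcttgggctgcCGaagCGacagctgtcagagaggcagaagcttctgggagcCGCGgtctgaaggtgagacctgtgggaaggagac

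The printed Hoxa10 window held 12 CpG dinucleotides, its other window (chr6:52234890-52235189) 21, the Hoxd10 window 22, and the Hoxa3 window 20. The 10 windows of members used in both groups held a median of 13.5 CpG dinucleotides, the other 14 windows a median of 17, and all 32851 promoter windows a median of 7. Motifs were searched on both strands, and a TGATNNAT match can overlap a TTTATG match. The HOX-PBX motif TGATNNAT was in 4 of the 24 Hox windows (16.7%) and in 8.85% of all windows, the MEIS motif TGACAG in 2 (8.33%) and in 19.2%, and the CDX motif TTTATG in 5 (20.8%) and in 11.9%. The E-box CAGCTG of the myogenic factors was in 4 (16.7%) and in 16.3%, and the nuclear receptor element AGGTCA in 7 (29.2%) and in 16.3%. Both Hoxa10 windows held none of these motifs, the Hoxd10 window held AGGTCA, and the Hoxa3 window held TGACAG and CAGCTG. These matches are letters in a window and are not shown to be bound.

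The Hoxa and Hoxc clusters were in use in both groups, the Hoxb cluster was low, and the Hoxd cluster was silent at this depth. A member is called on in a group where its deposited TPM (a level per transcript length, scaled within each library) was at least 1 in all 3 libraries of the group. By this measure 19 members were on in both groups, 9 of 11 in Hoxa, 8 of 9 in Hoxc, 2 of 10 in Hoxb, and 0 of 9 in Hoxd. Hoxa13 and Hoxb7 were on in the DM1 group and fell short of the level in some normal libraries. The TPM of the members on in both groups lay between 1.40 and 44.1, and no member outside the 21 that were on in a group passed 1.61 in any library.

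**Figure D1:**
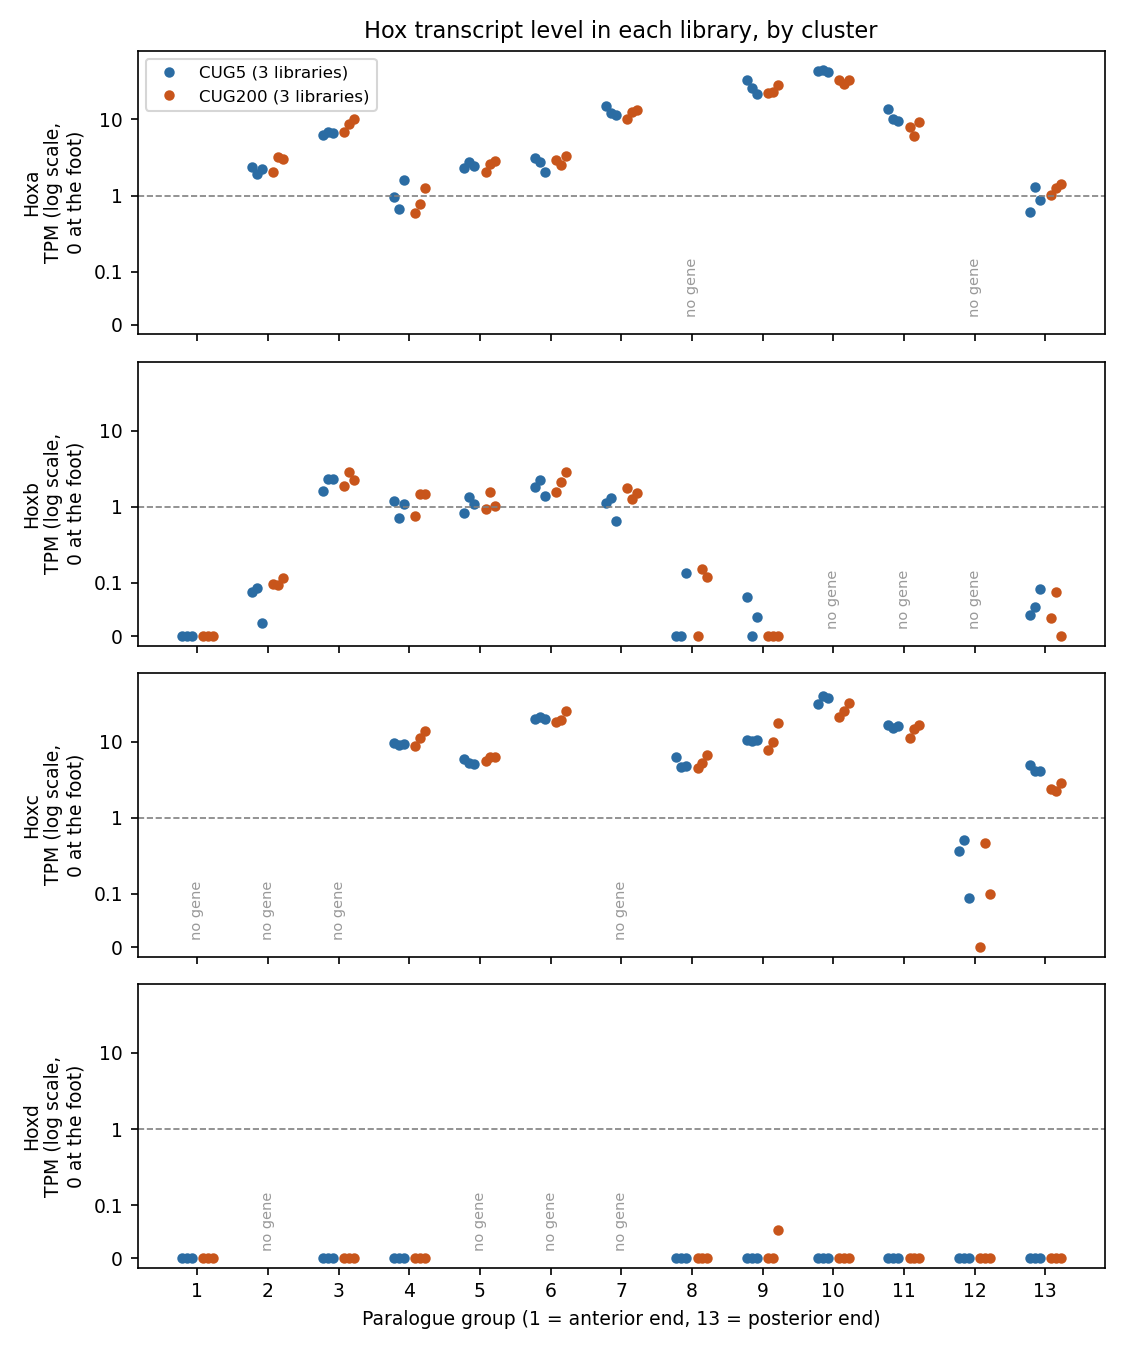
TPM of the Hox members in each library (log axis, with 0 drawn at the foot), by cluster and paralogue group, with CUG5 (normal) in blue and CUG200 (DM1) in orange, 3 libraries each. The dashed line is a TPM of 1. The Hoxa and Hoxc members stand above the line with the exception of Hoxa4, Hoxa13, and Hoxc12, the Hoxb members lie between 0 and 2.90, and the Hoxd members lie at 0 except for 1 library at Hoxd9.

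The Hoxa cluster gave 52.5%, 48.8%, and 47.6% of the Hox TPM in the normal libraries 1, 2, and 3, and 51.6%, 47.3%, and 45.4% in the DM1 libraries. The Hoxc cluster gave 44.7%, 47.7%, and 49.3% in the normal libraries and 44.5%, 47.8%, and 50.7% in the DM1 libraries. The groups overlapped for both clusters. The Hoxb cluster gave 2.85%, 3.48%, and 3.11% in the normal libraries and 3.91%, 4.84%, and 3.90% in the DM1 libraries, where the DM1 libraries were all higher. No test was made of these sums.

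Within Hoxa, Hoxa10 and Hoxa9 had the highest TPM, followed by Hoxa7 of the central and Hoxa11 of the posterior groups. Hoxa10, needed for the uterus and for the lumbar vertebrae, had a TPM of 43.8, 44.1, and 42.2 in the normal libraries and 32.6, 29.2, and 32.6 in the DM1 libraries. Hoxa9, known from blood stem cells and leukaemia, had 33.3, 25.7, and 21.9 TPM in the normal libraries and 22.5, 23.1, and 28.1 TPM in the DM1 libraries. The Hoxa10 groups did not overlap in TPM, and the Hoxa9 groups did. Hoxa7, a gene of the thoracic region, had 14.9, 12.1, and 11.5 TPM in the normal and 10.2, 12.4, and 13.3 TPM in the DM1 libraries. Hoxa11, which patterns the forearm and the kidney, had 13.7, 10.2, and 9.47 TPM in the normal and 8.03, 5.98, and 9.35 TPM in the DM1 libraries, lower in every DM1 library.

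The other Hoxa genes had lower mean TPM than these 4 except Hoxa3, which was above Hoxa11 in the DM1 group. Hoxa3, needed for the thymus and parathyroid glands, had 6.17, 6.82, and 6.61 TPM in the normal and 6.88, 8.63, and 10.2 TPM in the DM1 libraries. Hoxa2, which patterns the second branchial arch, had 2.37, 1.91, and 2.25 TPM in the normal and 2.06, 3.21, and 3.00 TPM in the DM1 libraries. The Hoxa3 groups did not overlap in TPM, and the Hoxa2 groups did. Hoxa5, needed for the lung and the cervical vertebrae, had 2.30, 2.80, and 2.44 TPM in the normal and 2.05, 2.61, and 2.86 TPM in the DM1 libraries. Hoxa6 had 3.14, 2.78, and 2.03 TPM in the normal and 2.93, 2.50, and 3.29 TPM in the DM1 libraries. Hoxa13, required for the digits and the end of the gut, was near the level set for on, with 0.612, 1.29, and 0.871 TPM in the normal and 1.02, 1.26, and 1.41 TPM in the DM1 libraries. Hoxa4, between Hoxa3 and Hoxa5 and both of these on, was low in both groups, from 0.586 to 1.61 TPM.

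Within Hoxc the posterior gene Hoxc10 had the highest mean TPM in both groups, followed by the central gene Hoxc6. Hoxc12 and Hoxc13, at the posterior end, had the lowest. Hoxc10, a gene of the lumbar region and the hindlimb, had 31.6, 39.7, and 38.1 TPM in the normal and 21.0, 25.4, and 32.0 TPM in the DM1 libraries. Hoxc6, a gene of the thoracic region, had 19.9, 21.1, and 19.9 TPM in the normal and 18.0, 19.1, and 25.7 TPM in the DM1 libraries. Hoxc11, with Hoxc10 a gene of the hindlimb region, had 16.4, 15.4, and 16.0 TPM in the normal and 11.2, 14.9, and 16.4 TPM in the DM1 libraries. The groups overlapped for all 3 genes, for Hoxc10 through the third DM1 library alone. Hoxc9, which sets thoracic motor neurons, had 10.5, 10.2, and 10.4 TPM in the normal and 7.74, 9.85, and 17.9 TPM in the DM1 libraries. The third DM1 library was high for Hoxc9 in TPM and not in counts, with 938 counts beside 937 and 1044 in the other two.

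The remaining Hoxc genes were lower. Hoxc4, the most anterior gene of the cluster, had 9.58, 9.18, and 9.45 TPM in the normal and 8.73, 11.1, and 13.7 TPM in the DM1 libraries. Hoxc5 had 5.95, 5.19, and 5.13 TPM in the normal and 5.62, 6.24, and 6.34 TPM in the DM1 libraries. Hoxc8, a gene of the lower thorax, had 6.29, 4.62, and 4.76 TPM in the normal and 4.51, 5.27, and 6.66 TPM in the DM1 libraries. The groups of these 3 genes overlapped in TPM. Hoxc13, the gene of hair and nail at the posterior end, had 4.98, 4.13, and 4.08 TPM in the normal and 2.38, 2.27, and 2.86 TPM in the DM1 libraries, and its groups did not overlap. Hoxc12, its neighbour, was low, with 0.510 TPM or less in every library and 0 in the first DM1 library.

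On deposited TPM, the order of the mean levels in the normal group began with Hoxa10 (43.4 ± 1.01 TPM, SD, n = 3), Hoxc10 (36.5 ± 4.31), Hoxa9 (26.99 ± 5.81), Hoxc6 (20.3 ± 0.676), Hoxc11 (15.9 ± 0.525), and Hoxa7 (12.8 ± 1.78). Of these neighbours only Hoxc10 and Hoxa9 overlapped between libraries. In the DM1 group the order was the same, with Hoxa10 (31.5 ± 1.97 TPM), Hoxc10 (26.1 ± 5.54), Hoxa9 (24.5 ± 3.06), Hoxc6 (20.9 ± 4.17), Hoxc11 (14.2 ± 2.64), and Hoxa7 (11.97 ± 1.55), and each overlapped with its neighbour except Hoxc6 with Hoxc11. This order depends on the scale. On a level computed from the counts over the union of annotated exons, an alternative added after seeing the data, the normal group began with Hoxc10 (49.3 ± 4.97), Hoxa10 (28.7 ± 1.78), Hoxc11 (21.6 ± 1.06), Hoxa11 (14.9 ± 3.51), Hoxc6 (14.7 ± 0.200), and Hoxc9 (13.1 ± 0.490), and Hoxa9 was at 11.98 ± 2.26. Hoxc10 was also above Hoxa10 on that level in the DM1 group, at 35.6 ± 8.40 beside 22.0 ± 1.14. Over the 19 members on in both groups the mean TPM of the groups had a Spearman correlation of 0.970, given as a description of genes measured in the same 6 libraries.

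The Hoxb cluster was low with no gene above 2.90 TPM. Hoxb3, an anterior gene of the hindbrain and neck, had 1.60, 2.31, and 2.32 TPM in the normal and 1.85, 2.86, and 2.24 TPM in the DM1 libraries. Hoxb6 had 1.82, 2.23, and 1.40 TPM in the normal and 1.54, 2.11, and 2.90 TPM in the DM1 libraries. Hoxb7 had 1.11, 1.30, and 0.647 TPM in the normal and 1.74, 1.26, and 1.504 TPM in the DM1 libraries. The groups of each of these 3 genes overlapped in TPM. Hoxb4, known from blood stem cells, and Hoxb5 lay on both sides of 1 TPM, from 0.720 to 1.56. Hoxb2, Hoxb8, Hoxb9, and Hoxb13 stayed at 0.154 TPM or less, and Hoxb1 had 0 counts in all 6 libraries.

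The Hoxd cluster, whose posterior genes pattern the limbs together with those of Hoxa, gave 0 counts in all 6 libraries for 8 of its 9 members. The exception was Hoxd9, with 4 counts, or 1 fragment, in the third DM1 library and 0 counts in the other 5. With Hoxb1, 9 of the 39 members had 0 counts in all 6 libraries, which allows up to 0.194 CPM in the shallowest. Evx2, the gene beside Hoxd13, and the cluster RNA Haglr also had 0 counts in all 6 libraries.

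The groups were then compared with edgeR's quasi-likelihood test over 19005 genes, with Benjamini-Hochberg adjustment. The total Hox RNA did not separate the groups, with 248, 261, and 256 CPM in the normal and 239, 252, and 253 CPM in the DM1 libraries after TMM scaling. Of the 39 members, 27 passed the filter on low counts and were tested. Hoxc13 was downregulated and Hoxa3 was upregulated in the DM1 group at an adjusted p-value under 0.05. Among all tested genes, 8.73% were lower and 7.13% were higher by the same rule, so 1 of 27 members in each direction is not above the background. The study required a log2 fold change beyond 1 in either direction as well, and by both criteria edgeR, DESeq2, and limma each called 0 members, while 2.18% of all genes passed by edgeR. At an unadjusted p-value under 0.05 there were 9 members, of which 0 had an absolute log2 fold change over 1, and 30.7% of all tested genes had such a p-value.

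Hoxc13 (ENSMUSG00000001655, chr15:102921103-102928814) had 6.87, 6.19, and 6.24 CPM in the normal libraries and 4.17, 3.72, and 4.10 CPM in the DM1 libraries. Every DM1 library was lower than every normal one. Its log2 fold change was -0.69 (SE 0.14, edgeR adjusted p = 0.0131). The direction held in all 17 alternatives, between -0.79 and -0.62, and the call held in 12 of them. The adjusted p was 0.0567, 0.0556, and 0.0601 without the first normal, the third normal, or the second DM1 library, and 0.0566 and 0.0575 by limma on log2(TPM + 1) and log2(TPM + 0.1).

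Hoxa3 (ENSMUSG00000079560, chr6:52169062-52213336) had 8.26, 10.2, and 9.60 CPM in the normal libraries and 11.5, 13.5, and 14.3 CPM in the DM1 libraries. Its groups did not overlap, and the log2 fold change was 0.49 (SE 0.14, edgeR adjusted p = 0.0429). This call held in 8 of 17 alternatives, and the adjusted p ranged from 0.0157 to 0.264 while the log2 fold change stayed between 0.33 and 0.59. Without the second normal, or without the second DM1 library, the adjusted p was 0.0760 and 0.131, and it was 0.140 without the first normal, 0.114 without the third normal, and 0.0780 without the third DM1 library.

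**Figure D2:**
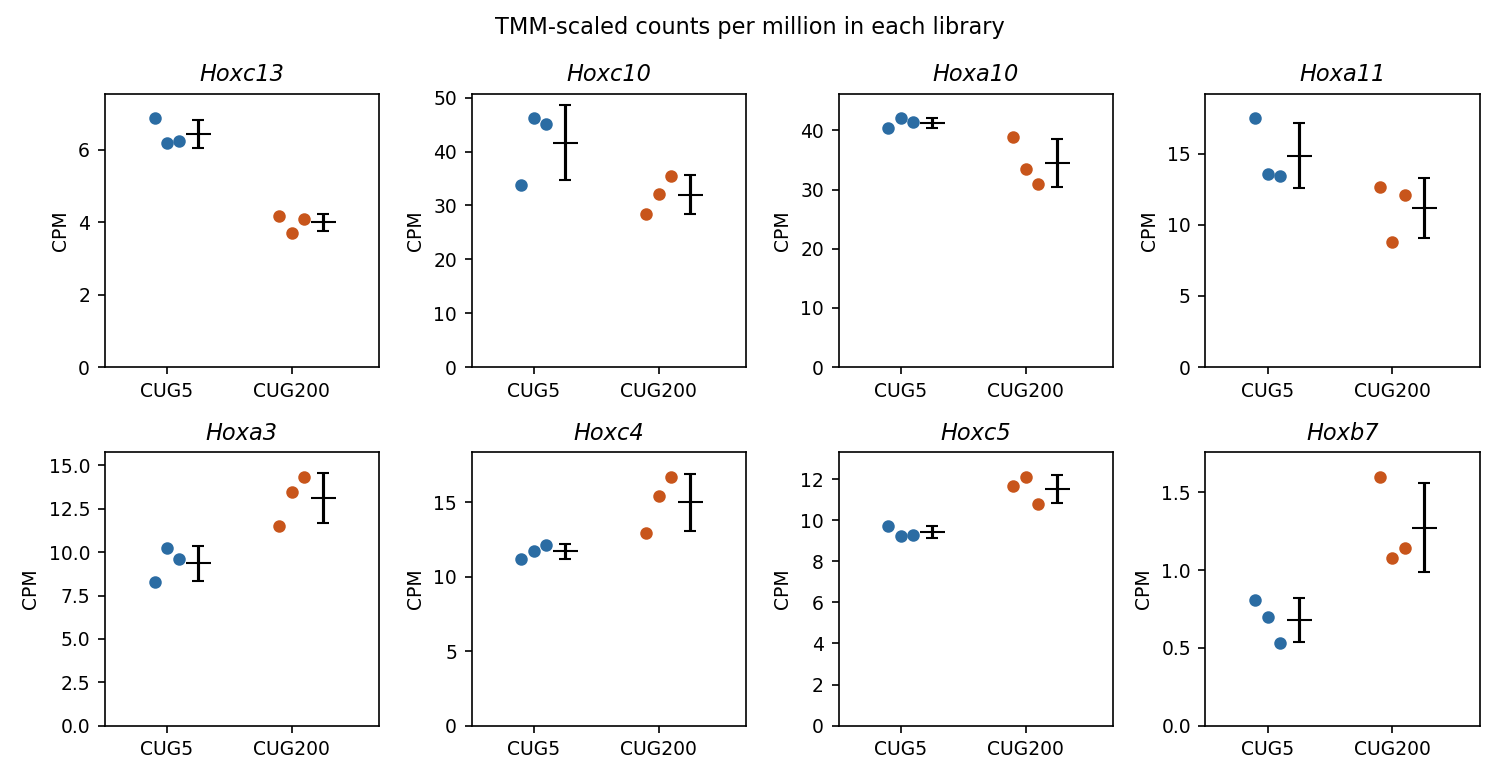
TMM-scaled CPM of 8 Hox members in each CUG5 (normal, blue) and CUG200 (DM1, orange) library, with the mean and SD of the 3 libraries of a group beside the points and each axis from 0. Hoxc13 lies between 6.19 and 6.87 CPM in the normal group and between 3.72 and 4.17 CPM in the DM1 group, while Hoxc10 overlaps between the groups.

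Apart from Hoxa13, the other posterior genes that were on had the same sign or lay near 0, and none of them, Hoxa13 included, passed the test. Hoxa10 had 40.4, 42.0, and 41.4 CPM in the normal and 39.0, 33.5, and 31.0 CPM in the DM1 libraries, a log2 fold change of -0.26 (SE 0.10, edgeR adjusted p = 0.121). Its groups did not overlap, and on log2(TPM + 1) the difference was -0.45 (limma adjusted p = 0.0448), while without the first DM1 library the log2 fold change was -0.34 (edgeR adjusted p = 0.0369). Hoxa10 was under 0.05 in 3 of 17 alternatives. The log2 fold change was -0.19 without the third DM1 library, and the edgeR adjusted p reached 0.287 without the third normal library. Hoxc10 had 33.8, 46.1, and 45.1 CPM in the normal and 28.4, 32.2, and 35.5 CPM in the DM1 libraries. Its log2 fold change was -0.38 (SE 0.14, edgeR adjusted p = 0.101). The first normal library of Hoxc10 lay below the third DM1 library, and with the replicate number as a block the adjusted p was 0.0424. Hoxc10 was under 0.05 in only this 1 of 17 alternatives, and its edgeR adjusted p reached 0.299 without the third normal library. Hoxa11 had 17.5, 13.6, and 13.4 CPM in the normal and 12.7, 8.76, and 12.1 CPM in the DM1 libraries, and the log2 fold change came to -0.41 (SE 0.17, edgeR adjusted p = 0.147). The log2 fold changes of Hoxa9, Hoxc9, and Hoxc11 were -0.02, -0.02, and -0.05, with SE of 0.11 each. Hoxa13 stood apart in sign, with 0.797, 1.81, and 1.27 CPM in the normal and 1.68, 1.98, and 1.94 CPM in the DM1 libraries, and a log2 fold change of 0.54 (SE 0.30, edgeR adjusted p = 0.278). It was 0.28 without the first and 0.85 without the second normal library, and that of Hoxa11 was -0.26 without the second DM1 library.

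Genes of the anterior and central groups mostly had positive values, again without passing the test apart from Hoxa3. Hoxc4 had 11.2, 11.7, and 12.1 CPM in the normal and 12.9, 15.4, and 16.7 CPM in the DM1 libraries, and the log2 fold change came to 0.36 (SE 0.13, edgeR adjusted p = 0.0886, and 0.0346 without the first DM1 library). Hoxc5 had 9.74, 9.25, and 9.30 CPM in the normal and 11.6, 12.1, and 10.8 CPM in the DM1 libraries, and the log2 fold change came to 0.29 (SE 0.11, edgeR adjusted p = 0.117). Hoxb7 had 0.809, 0.700, and 0.529 CPM in the normal and 1.60, 1.08, and 1.14 CPM in the DM1 libraries. A log2 fold change of 0.90 (SE 0.30, edgeR adjusted p = 0.0726) was the largest by edgeR among members that were on in a group. By limma on log2(TPM + 1) and log2(TPM + 0.1) Hoxb7 was at 0.32 and 0.56, while Hoxc13 was at -0.62 and -0.79. In CPM the DM1 libraries were all higher for Hoxc4, Hoxc5, and Hoxb7. Among other members on in a group the log2 fold changes were 0.46 for Hoxa2, 0.31 for Hoxb6, 0.27 for Hoxa6 and Hoxc8, 0.20 for Hoxb3, 0.14 for Hoxc6, 0.10 for Hoxa5, and -0.04 for Hoxa7, with adjusted p-values by edgeR from 0.161 to 0.855. The smaller of these values depended on single libraries. When 1 library was left out, Hoxb3 ranged from 0.0087 (without the second normal) to 0.47 (without the third normal), Hoxa5 from 0.0041 (without the first normal) to 0.20 (without the second normal), and Hoxc6 from 0.083 (without the third DM1) to 0.19 (without the first DM1). Hoxb6 was 0.51 without the second and 0.18 without the third normal library, and Hoxa6 was 0.14 without the third normal library. Among the low members that were tested, Hoxa4, Hoxb2, Hoxb4, Hoxb5, Hoxb8, and Hoxc12, the log2 fold changes lay between -0.60 and 1.04 with SE from 0.28 to 1.58, and the adjusted p-values between 0.379 and 0.777. With 1 library left out, Hoxb8 ranged from 0.34 (without the second DM1) to 6.52 (without the third normal library) and Hoxc12 from -2.41 (without the second DM1) to -0.0046 (without the first DM1), so no size can be given for either.

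The CPM of the groups did not overlap for 10 of the 27 tested members, with the DM1 libraries higher for 7 (Hoxa2, Hoxa3, Hoxb2, Hoxb7, Hoxc4, Hoxc5, and Hoxc6) and lower for 3 (Hoxa10, Hoxa11, and Hoxc13). Hoxb2 lay near the floor set by depth, with 12, 10, and 4 counts in the normal and 16, 14, and 14 in the DM1 libraries. For Hoxc6 the highest normal library had 16.34 CPM and the lowest DM1 library 16.43 CPM. Among all tested genes the DM1 libraries were all higher for 17.9% and all lower for 19.3%. The median log2 fold change was 0.20 over the tested members and 0.02 over all tested genes. The median over the members was 0.085 without the first normal library and 0.061 by limma on log2(TPM + 1), where that of all genes was 0.017 and -0.062.

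The log2 fold changes were then set beside the position in the cluster. Of the 5 tested genes of groups 1 to 3, 5 had a positive log2 fold change (median 0.46), as did 11 of the 13 genes of groups 4 to 8 (median 0.29), and 1 of the 9 genes of groups 9 to 13, Hoxa13 (median -0.26). Over the members that were on in a group, which leaves out low ones such as Hoxb2, these medians were 0.33, 0.27, and -0.16. Of the 8 negative posterior values, those of Hoxa9, Hoxc9, and Hoxc11 changed sign when 1 library was left out, and all 7 tested Hoxb genes had positive values. Within Hoxc the log2 fold change went down from 0.36 at Hoxc4 to -0.69 at Hoxc13, with a Spearman correlation with the paralogue group of -0.967 (Pearson -0.897) over its 9 genes. This is a description over genes that share the same 6 libraries. The correlation ranks Hoxc12, for which no size can be given, and it was -0.952 over the 8 Hoxc genes on in a group. By limma on log2(TPM + 1) and log2(TPM + 0.1) it was -0.867 and -0.917. Without Hoxc5 and Hoxc10, which share exonic bases, it was -0.964 over 7 genes, and it lay between -0.950 and -0.883 when 1 library was left out. With each DM1 library set alone against the normal mean it was -0.933, -0.500, and -0.900 for libraries 1, 2, and 3. The same correlation was -0.309 over the 11 Hoxa genes and 0.536 over the 7 tested Hoxb genes. With 1 library left out it ranged from -0.436 to -0.218 for Hoxa and from 0.0714 (without the first normal library) to 0.536 for Hoxb, and with the first DM1 library alone it was -0.100 and -0.179. The Hoxb value ranks Hoxb8, for which no size can be given. Over the 5 Hoxb genes with at least 10 counts in every library it was 0.700, and only 3 Hoxb genes were on in a group.

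**Figure D3:**
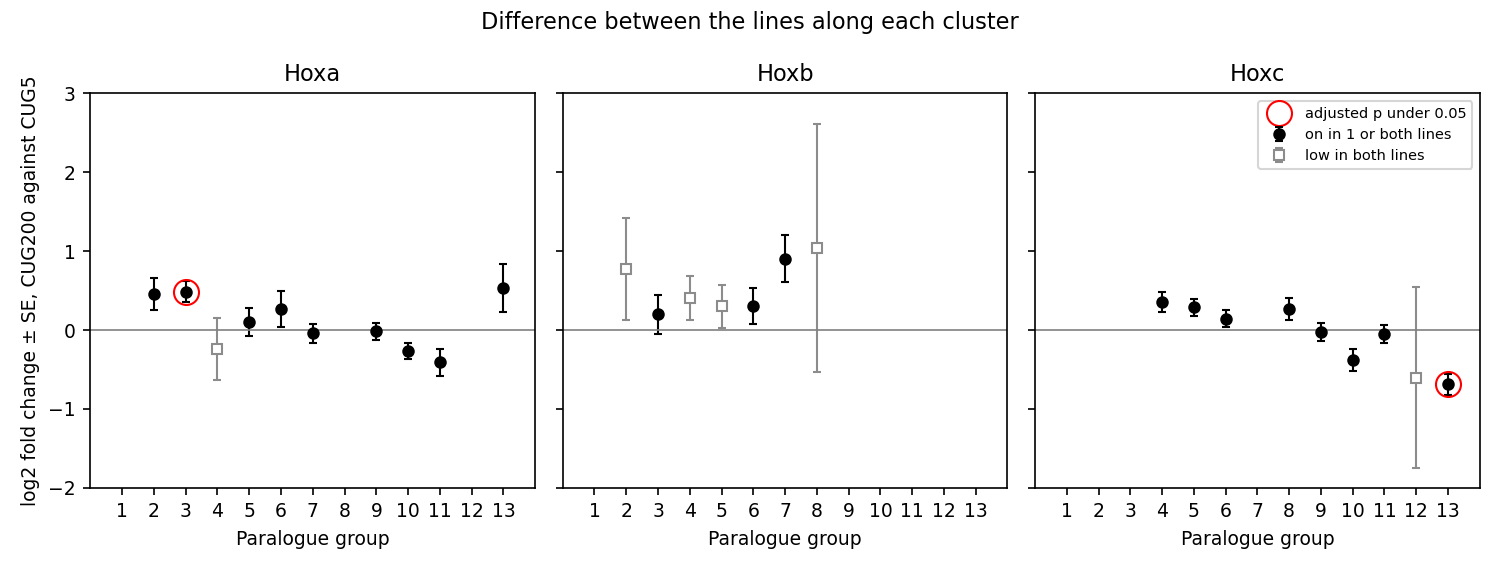
Log2 fold change (CUG200, the DM1 group, against CUG5, the normal group) of tested Hox members by paralogue group, with bars of 1 SE from edgeR. Filled circles were on in a group, open squares were low in both, and red rings have an adjusted p-value under 0.05. The Hoxc values go down from 0.36 at group 4 to -0.69 at group 13, while the Hoxb values are all positive.

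The share of posterior genes was also taken in each library. Groups 9 to 13 took 63.3%, 66.7%, and 66.4% of the Hoxc counts in the normal libraries and 56.3%, 57.8%, and 57.5% in the DM1 libraries, so the groups did not overlap. For Hoxa these shares were 72.9%, 70.8%, and 69.7% in the normal and 69.9%, 62.9%, and 63.4% in the DM1 libraries, where the first DM1 library lay above the third normal one. No test was made of these shares, since they sum over members already described. The difference in the means was -8.26 percentage points for Hoxc and -5.74 for Hoxa, and leaving out 1 library kept it between -9.35 and -7.64 for Hoxc and between -7.97 and -4.49 for Hoxa.

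**Figure D4:**
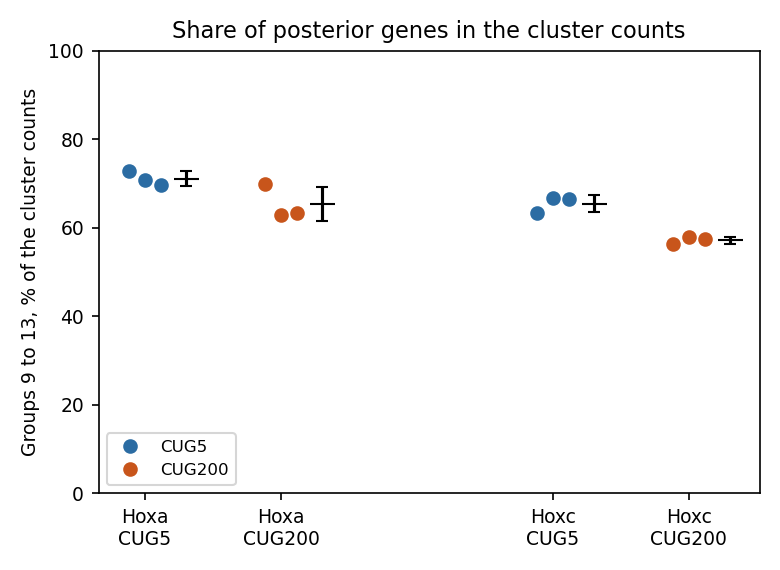
Percent of the Hoxa and Hoxc counts that fell on paralogue groups 9 to 13 in each CUG5 (normal, blue) and CUG200 (DM1, orange) library, with the mean and SD of 3 libraries beside the points. The Hoxc shares are 63.3% to 66.7% in the normal and 56.3% to 57.8% in the DM1 libraries, and the Hoxa shares overlap.

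Several members share exonic bases with another gene, which limits their values. Hoxc5 and Hoxc10 share 166 bases on the same strand, and when the counts of both were summed the log2 fold change was -0.23 (edgeR adjusted p = 0.207). Hoxa2 and Hoxa3 share bases with the readthrough gene Gm28308, which held from 1 to 6 counts. Summed over these 3 genes, the log2 fold change was 0.49 (edgeR adjusted p = 0.0292). The antisense RNA Hoxa11os covers 800 bases, or 35.0%, of the Hoxa11 exons, and because the sources used here do not give the strand setting of the counting, reads of both cannot be told apart. Hoxa11os had 14.8, 11.7, and 9.15 TPM in the normal and 10.4, 11.2, and 17.0 TPM in the DM1 libraries. It had a log2 fold change of 0.26 (edgeR adjusted p = 0.370), which was 0.072 without the third DM1 and 0.16 without the third normal library. Smaller overlaps with antisense RNAs were found for Hoxa3 (Hoxaas2, Hoxaas3, 5730596B20Rik, and Gm29430) and Hoxa7 (Hoxaas3), and a larger one for Hoxb3 (Hoxb3os, 52.9%, with at most 13 counts in a library).

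Other RNAs of the clusters were tested as well. Of 52 such genes 18 passed the filter, and edgeR and DESeq2 called 0 of them, with a median log2 fold change of 0.29. At an unadjusted p-value under 0.05 by edgeR there were 3 of the 18, beside 30.7% of all tested genes, which is not above the background. Hotair (chr15:102944062-102947730, minus strand), a long noncoding RNA between Hoxc11 and Hoxc12, had 7.19, 7.13, and 6.06 TPM in the normal and 6.30, 7.93, and 9.25 TPM in the DM1 libraries. Its log2 fold change was 0.32 (SE 0.13, edgeR adjusted p = 0.135). Hotairm1 had a log2 fold change of 0.62 (edgeR adjusted p = 0.229), 5730596B20Rik 0.50 (0.103), Gm29430 0.52 (0.547), Hoxaas3 0.25 (0.714), and Hoxaas2 -0.14 (0.893). When 1 library was left out, Gm29430 ranged from 0.13 (without the first DM1) to 0.70 (without the third DM1) and Hoxaas3 from 0.069 (without the second normal) to 0.65 (without the first normal). Gm27492, a short annotated RNA within the span of Hoxa11os, had the highest mean TPM of the list, from 13.2 to 21.7 by library, while Gm28032 ranged from 0.269 to 24.9. Gm27492 had a log2 fold change of 0.41 (edgeR adjusted p = 0.284), which was 0.66 without the second normal library. Of the cluster miRNA genes, Mir196a-2 had from 2 to 6 counts in every library, while Mir196a-1 and Mir10b had 0. Mature miRNAs are not measured in these libraries.

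Most protein-coding neighbours outside the clusters did not pass the test. Of 24 flanking genes 20 were tested, 0 rose, and 2 fell (10%, beside 8.73% lower and 7.13% higher over all genes), with a median log2 fold change of -0.0026 over the list. Snx10, beyond Skap2 on the anterior side of Hoxa, had a log2 fold change of -0.58 (SE 0.13, edgeR adjusted p = 0.0181), and Nfe2l2, the regulator of the oxidative stress response beyond Mtx2 from Hoxd, one of -0.32 (SE 0.08, edgeR adjusted p = 0.0317). Skap2 (0.01), Hibadh (-0.08), and Tax1bp1 (0.02) beside Hoxa, Skap1 (1.22) and Snx11 (0.06) beside Hoxb, Smug1 (-0.13), Cbx5 (-0.24), Hnrnpa1 (0.23), Calcoco1 (-0.39), and Atp5g2 (0.25) beside Hoxc, and Lnpk (-0.07) and Mtx2 (0.16) beside Hoxd did not pass, with log2 fold changes as given. That of Hnrnpa1 was 0.12 without the first DM1 library. Evx1 and Evx2, the homeobox genes that adjoin Hoxa13 and Hoxd13, had 0 counts.

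Of 12 HOX cofactor genes, mostly of the TALE class, 1 rose (8.33%, beside 7.13% of all genes) and 4 fell (33.3%, beside 8.73%), with a median log2 fold change of -0.28. Pbx4 had 2.22, 1.66, and 1.49 TPM in the normal and 3.74, 4.22, and 4.33 TPM in the DM1 libraries, a log2 fold change of 1.12 (SE 0.25, edgeR adjusted p = 0.0197). Without the first normal, the third normal, or the second DM1 library the adjusted p of Pbx4 was 0.0565, 0.0645, and 0.0693. Pknox1 (-0.45), Pbxip1, which binds PBX proteins (-0.42), and Tgif1 (-0.40) were among those that fell, with adjusted p-values by edgeR from 0.0196 to 0.0392. Tgif1 was also the most abundant of the list, with 113 TPM on average in the normal and 83.1 TPM in the DM1 group. Meis1, Meis2, Meis3, Pbx2, Pbx3, Pknox2, and Tgif2 did not pass.

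Of 32 Polycomb genes, 1 rose (3.12%) and 4 fell (12.5%), and of 18 Trithorax and H3K27 demethylase genes, 1 rose (5.56%) and 2 fell (11.1%), beside 7.13% higher and 8.73% lower over all genes. Rybp, a subunit of variant Polycomb repressive complex 1, had 12.5, 11.4, and 11.4 TPM in the normal and 5.92, 5.61, and 7.09 TPM in the DM1 libraries. It fell with a log2 fold change of -0.84 (SE 0.09, edgeR adjusted p = 0.00181), and the call held in all 17 alternatives. Rbbp4 (-0.36), Phc2 (-0.34), and Aebp2 (-0.32) also fell, and Cbx7, a reader of H3K27 methylation, rose (0.58, SE 0.11, edgeR adjusted p = 0.0129). The catalytic subunits Ezh2 (0.10) and Ezh1 (0.23), the core subunits Eed (0.05) and Suz12 (-0.28), and Rbbp7 (-0.12), the most abundant of the list, did not pass. When 1 library was left out, Rbbp7 ranged from -0.21 (without the first DM1) to -0.039 (without the third normal). In Suz12 the third DM1 library stood apart, with 18.4 CPM beside 51.9 and 48.0 in the other two and from 46.6 to 48.6 in the normal libraries. On the Trithorax side Men1 (-0.53) and Ash2l (-0.39) fell, and the remodeller Smarca2 rose (0.56, SE 0.12, edgeR adjusted p = 0.0186), while Psip1, the most abundant, had a log2 fold change of -0.02. The medians over the lists were -0.13 and 0.0062.

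Of 10 other regulators of Hox clusters 5 were tested. Ctcf, which marks boundaries between active and silent parts of the clusters, had 30.0, 28.4, and 28.5 TPM in the normal and 16.4, 18.6, and 22.9 TPM in the DM1 libraries, and it fell with a log2 fold change of -0.59 (SE 0.08, edgeR adjusted p = 0.00404). Gmnn, which encodes geminin, rose (0.69, SE 0.18, edgeR adjusted p = 0.0309). The caudal genes Cdx2 and Cdx4, activators of posterior Hox genes in the embryo, had 0 counts, and the third, Cdx1, had 8 counts or less in each library. Gdf11, Nr6a1, and Lin28b did not pass.

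Of the 16 calls named among flanking genes, cofactors, and regulators, those of Rybp and Ctcf held when any 1 library was left out. The other 14 were each lost without some library, in 3 to 5 of 6 cases, with adjusted p-values by edgeR from 0.0522 to 0.156. Leaving out the third normal library ended 14 of these calls, the first normal 13, the second DM1 13, the second normal 11, the first DM1 5, and the third DM1 0.

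The groups also differed in markers of differentiation. In bulk RNA fewer cells of a type and less RNA per cell cannot be told apart, a limit that holds for every difference above. Of 13 myoblast and myotube markers, 9 fell and 0 rose in the DM1 group, beside 8.73% lower and 7.13% higher over all genes. Among those that fell were Myh8, Ckm, Myog, Myh3, and Acta1, and the summed TPM of the list lay between 8755 and 10278 in the normal and between 4523 and 6726 in the DM1 libraries. Of 5 fibroblast markers that were tested, 3 rose (Dpt, Lum, and Dcn) and 0 fell, beside the same shares over all genes, with summed TPM between 932 and 1493 in the normal and between 1309 and 1706 in the DM1 libraries, and Tcf21 was at 0. Of 6 tested markers of quiescent or reserve cells, Cd34 rose and Heyl and Sdc4 fell. When 1 library was left out, the call of Dcn held in 2 of 6 cases and that of Sdc4 in 3 of 6. Their adjusted p-values by edgeR reached 0.115 and 0.136. The calls of Dpt, Lum, Cd34, and Heyl held in all 6. Of the osteoblast, adipocyte, neural, and blood or endothelium markers that were tested, 0 passed. The 1 with an unadjusted p-value under 0.05 by edgeR was Sox2, where 30.7% of all tested genes had such a p-value. The part of these shifts in the Hox differences was not tested.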

How the data were processed

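RNA-seq libraries of C2C12 lines carrying GFP-CUG5 or GFP-CUG200 were analysed at differentiation day 4 (3 per line). The authors ran trim_galore on the reads, HISAT2 against GRCm38, and then StringTie for gene levels. Versions, annotation release, strand setting, and read length are not given in the sources used here. The authors deposited a table of raw counts per gene, in which 1 count is 75 aligned bases. The authors also deposited TPM, FPKM, and coverage (mean signal per base) for each library, scaled by StringTie. For 99.5% of single-transcript genes, coverage times length over 75 fell within 1 count.

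Counts were tested with edgeR 4.0.16 (robust quasi-likelihood, TMM, filterByExpr with a minimum count of 10) in R 4.3.3, with Benjamini-Hochberg adjustment over 19005 genes. Alternatives used DESeq2 1.42.0, limma 3.58.1 on log2 of TPM plus 1 or 0.1, other scalings and filters, a replicate block, sums over genes that share exons, and each library left out. A level over the exon union was added after seeing the data. In simulated data for this comparison, with a log2 fold change of 2 in 200 genes, edgeR recovered 158 with 1 false call. The members and lists were chosen with earlier results of these data known. Members on in a group or called were named with every value. Of each other list, up to 5 called genes in each direction by smallest p and the most abundant gene were named, with cluster neighbours, cluster RNAs that share exons with a member, and a few catalytic or well-known genes chosen after their values were seen. Library totals were 61707889 to 80957325 counts, and intervals of counting error do not cover PCR duplicates. Values of 2 genes are not reported here, and counts over lists include them.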

Additional observations from a re-analysis of the deposited data

How the results depend on the processing

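Of the Hox members, 1 was higher and 1 lower at an adjusted p under 0.05. The higher count was 0 with library totals alone, without robust estimation, and by limma on both TPM scales, and 0 to 2 when 1 library was left out. The lower count was 2 with the replicate block and 0 to 2 when 1 library was left out. Replicate numbers were shared between the groups, but the correlations of same-numbered libraries were 0.113, 0.0518, and 0.0538, so they were not taken as pairs, although each library correlated best with its own number. The block added Hoxc10.

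When 1 library was left out, the higher and lower counts ranged from 0 to 2 and from 1 to 8 for Polycomb genes (1 and 4 in the report), from 0 to 1 and from 0 to 4 for cofactors (1 and 4), and from 0 to 3 and from 0 to 5 for Trithorax genes (1 and 2). The higher count of other regulators (1) ranged from 0 to 1, and the lower count of flanking genes (2) from 0 to 3. By limma on both TPM scales the counts were 0 higher and 2 lower for Polycomb genes, 0 lower for cofactors, 0 and 0 for Trithorax genes, 0 higher for other regulators, and 0 lower for flanking genes, and on log2(TPM + 1) 0 other regulators were lower. With library totals alone 2 cofactors were lower. DESeq2 gave 2 higher Trithorax genes and 4 lower flanking genes. Summing genes that share exons gave 1 higher cluster RNA, which is Gm28308 with Hoxa2 and Hoxa3.

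At a TPM of at least 5, 11 members were on in each group (19 and 21 at 1). The Hoxa sum differed by -0.06 on the log2 scale in TMM-scaled CPM and by -0.21 in TPM. Small values changed sign: Hoxa4 (0.23 without normal library 3), Hoxa5 (-0.0081 and -0.013 on the TPM scales), and Hoxc9 (0.091 and 0.092 on the TPM scales). Hnrnpa1 (-0.068 on both) and Hoxaas3 (-0.13 and -0.26) also changed sign on these scales. Hoxaas2 did so with the block (0.13), on the TPM scales (0.27 and 0.43), and without normal library 3 (0.60). Hoxc5 (-0.23 summed with Hoxc10) was negative only in this sum, a value for both genes in which Hoxc10 had more counts. By itself Hoxc5 stayed positive, from 0.14 by limma on log2(TPM + 1) to 0.33 without DM1 library 3. With 1 library left out, the log2 fold change of Hoxa4 ranged from -0.48 to 0.23, Hoxa7 from -0.11 to 0.034, Hoxa9 from -0.10 to 0.052, Hoxc9 from -0.068 to 0.053, Hoxc11 from -0.12 to 0.048, Psip1 from -0.12 to 0.072, and Hoxaas2 from -0.57 to 0.60. The cause was not tested. Depth limits the low members, where 3 fragments are 0.148 to 0.194 CPM.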
